A study of Homo sapiens with 6 samples.

Results

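Readthrough genes are annotated where 2 neighbouring genes on one strand also give a single transcript that runs from the first into the second. The count tables name such a gene by joining the names of its components with a hyphen, as in COMMD3-BMI1. All symbols that split at 1 hyphen into names A and B, both also listed as symbols, were taken: 122 readthrough rows (A-B) and 242 component rows (A upstream, B downstream), or 364 of 26485 symbols. BLOC1S5 and RAB4B each belong to 2 readthrough names, so the rows form 120 joined loci. Of the 1798 symbols with a hyphen, the others did not meet this rule.

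RNA was sequenced from AF22, an established human line of neuroepithelial-like neural stem cells, in 3 control libraries (shControl, genotype given as wild type) and 3 libraries whose label names a COMMD3/COMMD3-BMI1 knockdown. The labels describe neither the knockdown reagent nor the origin of the replicates, and if these came from 1 culture, p-values measure only technical spread. Totals ran from 7294687 to 11579849 counts per library. Values are given as CPM, counts scaled to library size, and ± marks the SD of the 3 libraries of a group (n = 3) throughout. The A-B rows held 0.276% to 0.283% of a library and the component rows 0.934% to 0.961%. The stem cell markers NES, at 659 ± 27.2 CPM in control and 703 ± 36.2 in knockdown, and VIM, at 1150 ± 58.8 and 1187 ± 23.7, were abundant, while SOX10 and GFAP, of oligodendrocyte and astrocyte lineages, were at 0 in every library. Of the same stem cell list, SOX2 fell from 288 ± 6.43 to 260 ± 8.20 CPM (edgeR adjusted p = 0.00909). HES1 fell from 66.5 ± 5.32 to 53.4 ± 1.05 CPM (adjusted p = 0.000184). MSI1 rose from 139 ± 1.68 to 152 ± 10.9 CPM (adjusted p = 0.031), and its groups overlapped. NES, VIM, SOX1, PAX6 and FABP7 did not pass the test. Markers of other cell types also moved, and the fibroblast list was mixed. COL1A1 of that list went from 63.8 ± 4.39 CPM in control to 76.003 ± 9.15 in knockdown (log2 fold change 0.27, edgeR adjusted p = 0.00224). LUM went the other way, from 33.9 ± 3.50 to 29.7 ± 1.01 CPM, with overlapping groups (log2 fold change −0.20, adjusted p = 0.0465). DCN stayed near level, at 5.24 ± 0.595 CPM in control and 5.41 ± 0.665 in knockdown (adjusted p = 0.913). POU5F1, from the pluripotent list, went from 59.1 ± 2.28 to 45.7 ± 4.02 CPM (log2 fold change −0.37, adjusted p = 2.54e-05), while NANOG of the same list had 4 counts in all. Their part in the results was not tested. In bulk RNA, fewer cells with a transcript and less of it per cell cannot be told apart.

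A transcript normally ends when its poly(A) signal is cleaved and RNA polymerase is released. When the polymerase continues into the next gene, the splicing machinery can skip the last exon of the first gene and the first exon of the second, and the product carries exons of both. Some readthrough transcripts encode a fusion of both proteins, and others are noncoding or are degraded.

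The exons followed this scheme in GENCODE v29 (GRCh38), which held 346 of the 364 symbols, 20 of them through a RefSeq synonym. Both components lay on 1 chromosome in 115 trios of A, B and A-B. In C10orf32-ASMT they did not, because the symbol ASMT belongs to a gene on chromosome X while this readthrough lies on chromosome 10. The other 6 could not be placed. In the 104 trios where the order of the components was known, all had both on the same strand, 12 with overlapping bodies, and the median gap was 3552.5 bases, up to 573553 bases in IQCJ-SCHIP1. Of 98 readthrough genes with a junction between the components, 88 joined an exon of A directly to an exon of B. The junction left from the end of an A exon in 83 and entered at the start of a B exon in 70, across a median intron of 14634.5 bases. Only 2 entered at the start of a B transcript, and 7 left from the end of an A transcript.

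The sequences across the junction show where A-B joins exons of both components, which a read from A or B alone does not span. They are given 5′ to 3′ along the transcript from GENCODE v29, with 15 bases of the last exon before the junction in lower case and 15 bases of the next exon in capitals. The set holds the targeted gene, 3 abundant A-B rows, and 3 of the rows that changed.
COMMD3-BMI1: atggaacaattacagGATTTTTTATCAAGC
SENP3-EIF4A1: ctgcaaactcactgtCCAGGGGAATCCTCC
NME1-NME2: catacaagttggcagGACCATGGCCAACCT
RBM14-RBM4: gtgacgtggtgaaagGCAAACGAATGCACG
EEF1E1-BLOC1S5: cttcatcgctttataATCTTGGAGAAATTC
STON1-GTF2A1L: tgctacaacatccagCCTAAACTCTACAGA
FAM47E-STBD1: gagctgcaggaacagAGCATCTTCAAGAAA

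The COMMD3-BMI1 junction joins chr10:22318959-22319018 to chr10:22326431-22326561 on the plus strand, and that of NME1-NME2 joins chr17:51161160-51161272 to chr17:51166827-51166956, also on the plus strand. The one of SENP3-EIF4A1 joins chr17:7571373-7571479 to chr17:7572284-7572864 (plus), an exon that does not begin where any EIF4A1 exon begins. The SENP3-EIF4A1 bases given in capitals lie before the first EIF4A1 exon of transcripts linked to RefSeq, and the same exon reaches EIF4A1 bases only further on. RBM14-RBM4 joins chr11:66616626-66617057 to chr11:66643450-66644140 (plus). EEF1E1-BLOC1S5 joins chr6:8090186-8090281 to chr6:8062534-8062616 on the minus strand. STON1-GTF2A1L joins chr2:48591653-48591855 to chr2:48620851-48620952 (plus), and FAM47E-STBD1 joins chr4:76278069-76278224 to chr4:76309144-76311120 (plus). Reads that stay inside an exon shared with A or B cannot tell A-B from that component. How the counting divided such reads is not given in the sources used here, so an A-B count is not a measured level of the readthrough transcript.

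**Figure D1:**
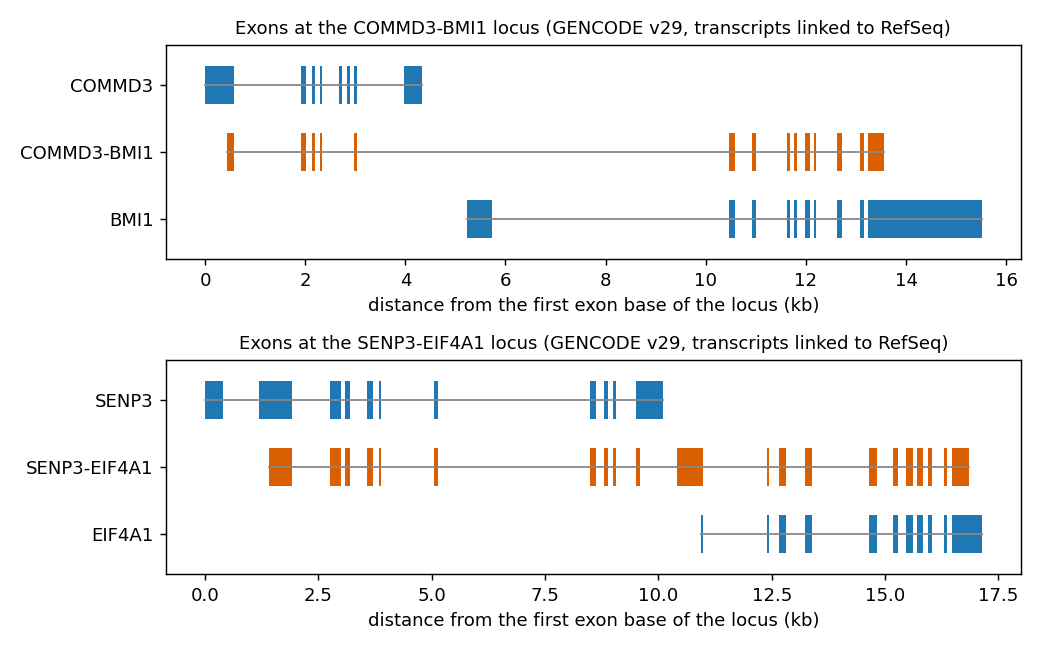
Exons of the COMMD3-BMI1 and SENP3-EIF4A1 loci, drawn as boxes against the distance in kb from the first exon base of the locus, for the components (blue) and the readthrough gene (orange). Every COMMD3-BMI1 exon base is also a base of COMMD3 or BMI1, whereas SENP3-EIF4A1 has 542 exon bases of its own.

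Rows of A-B genes without exon bases of their own were more often at 0, but the separation was incomplete and was not tested. Among 98 trios with exons for all 3 genes, 44 A-B genes had no exon base of their own, and 26 of these had counts while 18 were at 0 in all libraries. Of the 54 with bases of their own, 47 had counts and 7 were at 0. NME1-NME2 and RBM14-RBM4 had no base of their own yet held 8492 and 7744 counts over the 6 libraries, while COMMD3-BMI1, with 0 of 1419 bases, held none. EIF4A1, a helicase of translation initiation that growing cells need, was listed at 0 although 290 of its exon bases lay in no other gene of the trio. These rows are exceptions to a division by unique GENCODE exon bases, and the annotation the authors used is not given in the sources used here.

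In control and knockdown alike, the A-B rows ran from none of their trio's counts to nearly all of them. There were 32 A-B rows at 0 in all 6 libraries, and in 18 of these both components passed the filter on low counts. The largest such pair was TMX2 and CTNND1, with 6250 and 21572 counts over the 6 libraries and none for TMX2-CTNND1, and RPS10-NUDT3, BCL2L2-PABPN1 and CHURC1-FNTB were also at 0. A count of 0 allows up to 0.259 to 0.42 CPM in a library, taking 3 counts as the limit, and this covers counting error only. Another 24 A-B rows had counts but too few to test, and 66 were tested. Over all 122 trios, the largest row was A in 56, B in 37 and A-B in 24, and 5 trios held no counts.

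For each of the 66 tested A-B rows, the share of A-B in the summed counts of A-B, A and B was taken in each library. This compares counts and not levels per length, since the 3 rows differ in length. The median share was 26.9%, with 19 rows above 50%, 6 above 90% and 17 under 10%. At the low end stood ATP6V1G2-DDX39B with 0.603%, where DDX39B, an RNA helicase of splicing and export, held 16733 counts against 106 for the A-B row. At the high end stood LY75-CD302 with 99.8%, where LY75 had 1 count, CD302 none and the A-B row 514.

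**Figure D2:**
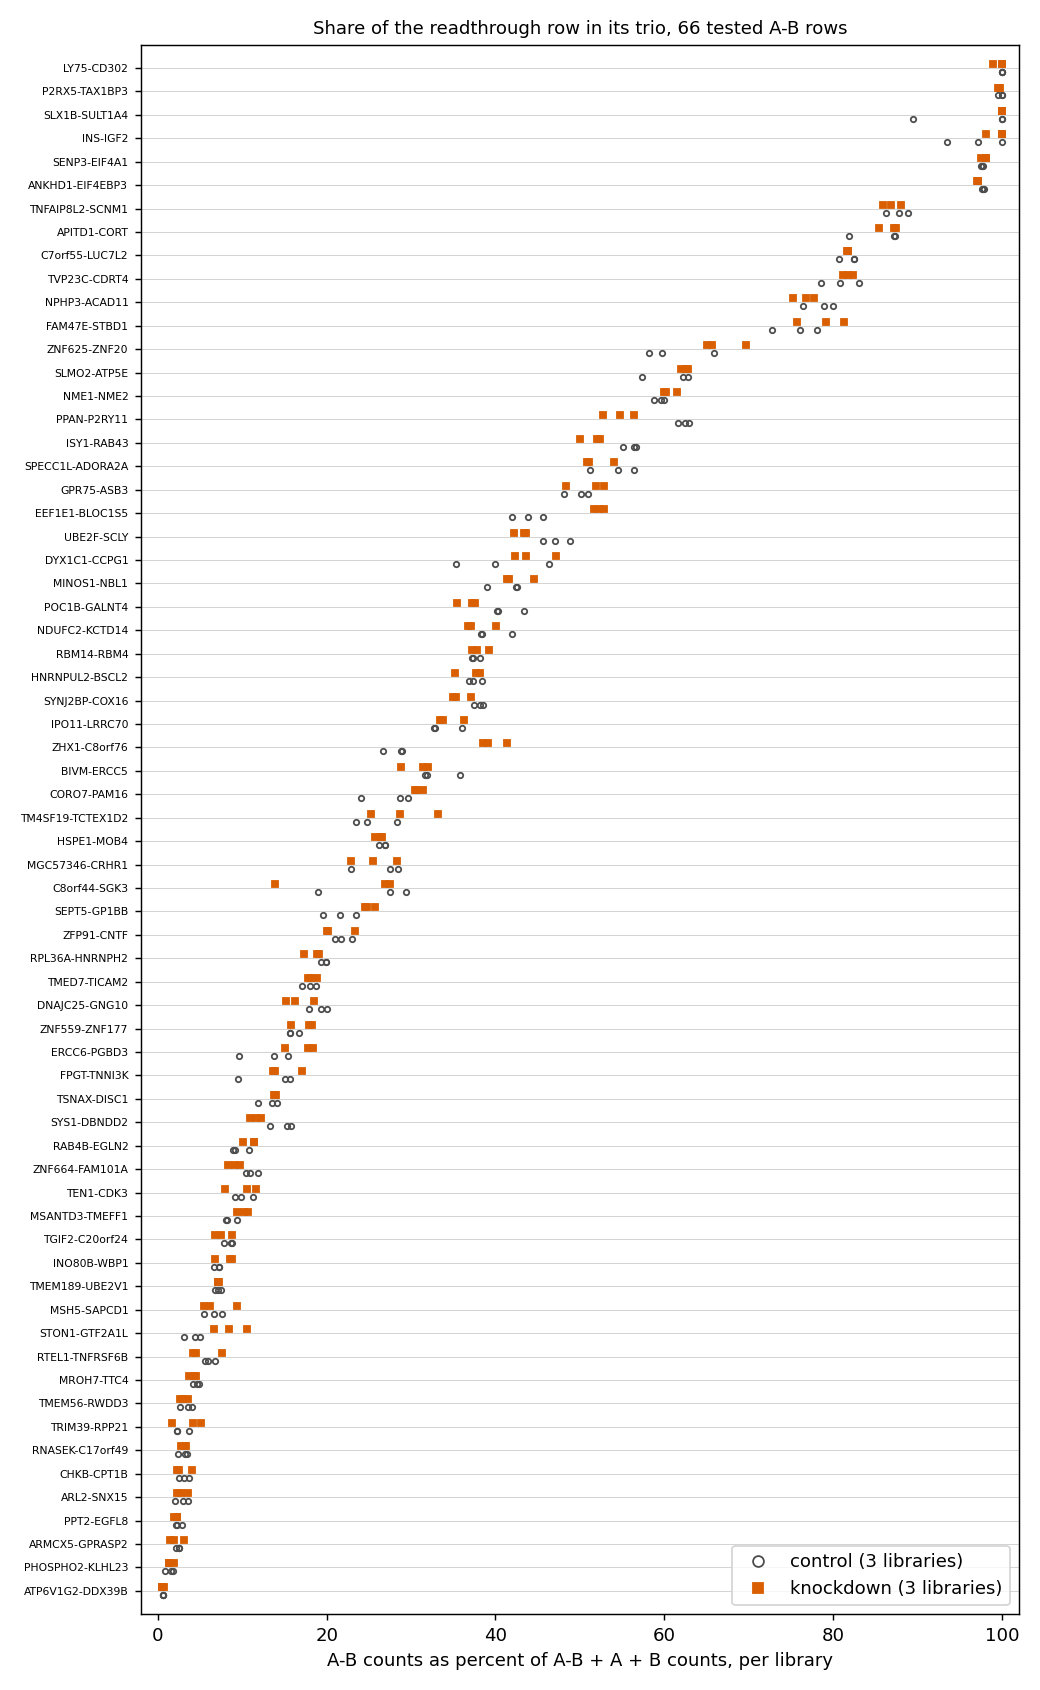
Share of A-B counts in the sum of A-B, A and B counts (percent, x axis) for the 66 tested readthrough rows, with 1 point per library, control in open circles and knockdown in orange squares. Rows are ordered by their mean share, from 0.603% to 99.8%, and for most rows the libraries of both groups lie together.

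Where A-B took nearly all counts, even a component that every cell uses was listed at 0. The SENP3-EIF4A1 row stood at 599, 603 and 640 CPM in control against at 613, 625 and 603 CPM in knockdown, the most counts of all A-B rows. SENP3, a protease that removes SUMO from proteins, had 13.7, 14.4 and 16.3 CPM in control against 15.5, 11.8 and 11.7 CPM in knockdown, and EIF4A1 had 0 in each library. The groups overlapped for both, and neither row passed the test, with an edgeR adjusted p of 0.998 (log2 fold change 0.00, SE 0.04) and 0.297 (log2 fold change −0.17, SE 0.12). ANKHD1-EIF4EBP3 held 12942 counts against 329 for ANKHD1, a KH-domain protein with ankyrin repeats, and 10 for EIF4EBP3, a binder of the cap-binding factor eIF4E. P2RX5-TAX1BP3 held 5001 counts against 11 and 3. In 7 tested rows 1 component was at 0 in all libraries: A in TNFAIP8L2-SCNM1, INS-IGF2 and SLX1B-SULT1A4, and B in SENP3-EIF4A1, SEPT5-GP1BB, LY75-CD302 and MGC57346-CRHR1. Whether reads of these symbols were counted under the A-B row was not tested.

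Other abundant trios divided their counts more evenly, with C7orf55-LUC7L2 the least even of those given here. NME1 and NME2 are nucleoside diphosphate kinases, and NME1-NME2 held 8492 counts against 2631 and 3038. RBM14-RBM4 held 7744 counts against 7379 for RBM14 and 5352 for RBM4, both RNA-binding proteins. HNRNPUL2-BSCL2 held 8094 against 7219 for HNRNPUL2, a nuclear ribonucleoprotein, and 6380 for BSCL2, the lipid droplet protein seipin. C7orf55-LUC7L2 held 7244 against 176 and 1430, the last for the splicing factor LUC7L2. These 4 A-B rows had 156 ± 3.65, 135 ± 4.84, 148 ± 2.76 and 130 ± 4.60 CPM in control, and 151 ± 2.00, 145 ± 6.21, 145 ± 7.91 and 132 ± 0.563 CPM in knockdown. None of the 4 passed the test, although RBM14-RBM4 did in 5 of its 14 alternatives (adjusted p 0.0213 to 0.248 over all 14), among them without control replicate 2 (0.0472) and knockdown replicate 3 (0.0213). Their log2 fold changes were −0.05, 0.11, −0.02 and 0.02, at edgeR adjusted p of 0.398, 0.0627, 0.734 and 0.775.

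The trio named in the knockdown label came first in the comparison of groups. COMMD3, a subunit of the Commander complex of endosomal sorting, stood at 31.7, 29.7 and 27.6 CPM in control against at 12.9, 11.3 and 10.5 CPM in knockdown. All knockdown libraries lay below all control libraries (log2 fold change −1.37, SE 0.10, edgeR adjusted p = 2.34e-12). BMI1, a polycomb repressive complex 1 subunit, had 113, 109 and 109 CPM in control against 107, 103 and 105 CPM in knockdown, and did not pass the test although the groups did not overlap (log2 fold change −0.07, adjusted p = 0.206). The COMMD3-BMI1 row was at 0 in all 6 libraries, so it gives no check of a lower readthrough transcript. With the 3 rows summed, the locus had 140 ± 4.18 CPM in control against 117 ± 2.83 CPM in knockdown, and the sum passed the test (log2 fold change −0.26, SE 0.04, adjusted p = 2.73e-05).

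**Figure D3:**
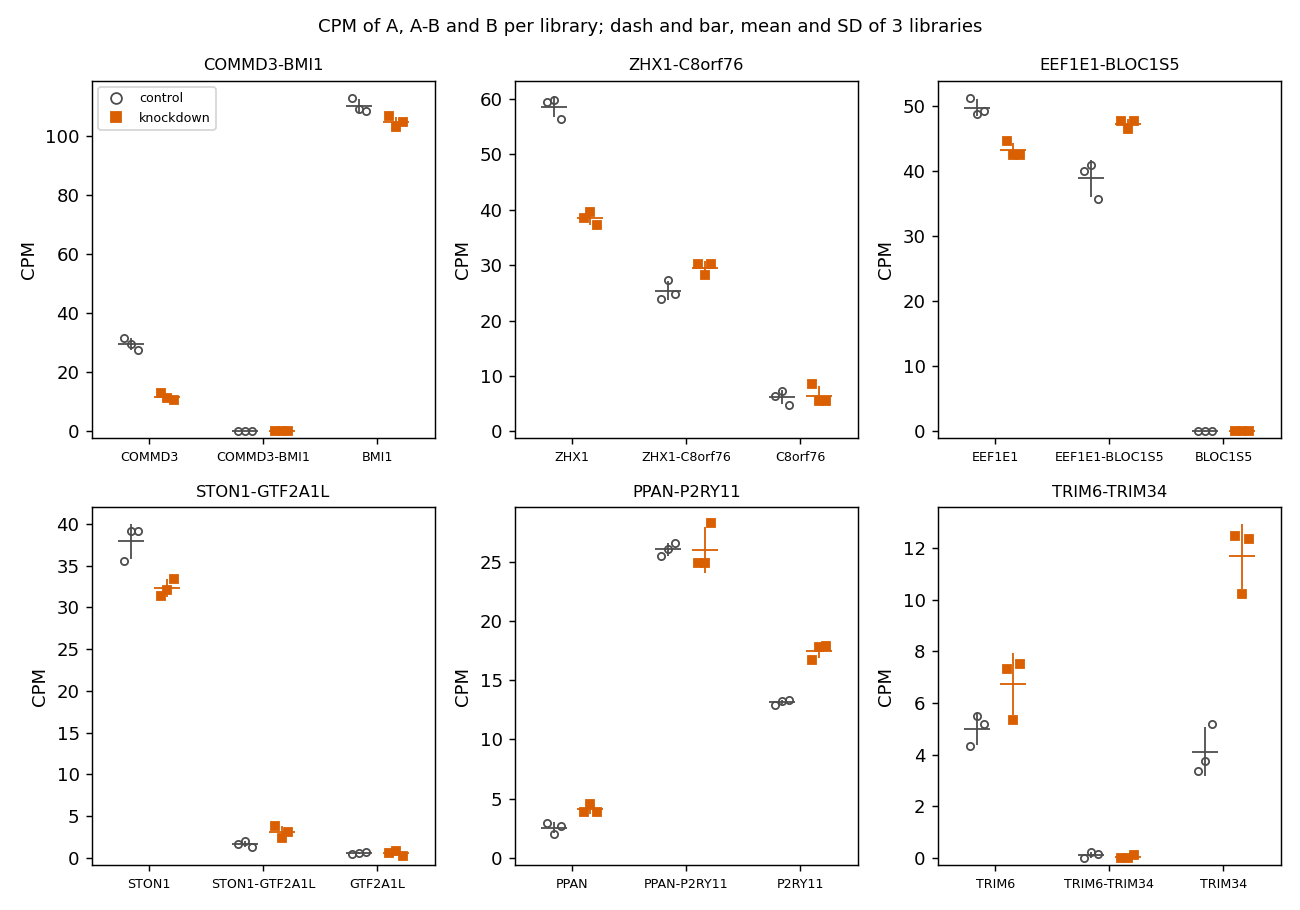
CPM (y axis, linear) of A, A-B and B in 6 trios, with 1 point per library, control in open circles and knockdown in orange squares, and a dash and bar for the mean and SD of 3 libraries. COMMD3 is lower and COMMD3-BMI1 at 0, while ZHX1-C8orf76, EEF1E1-BLOC1S5 and STON1-GTF2A1L are higher beside a lower upstream component.

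Across the readthrough rows, few differed and their changes were small. Of the 66 tested, 7 rose and 5 fell in knockdown at a threshold of 0.05 (quasi-likelihood test of edgeR, p-values adjusted by Benjamini-Hochberg over all genes), or 18.2%, where 33.3% of all 13632 tested genes did (15.3% higher, 18.1% lower). The A-B rows had lower counts, with a median of 17.3 CPM against 43.8 over all tested genes, and its part in the lower share was not tested. Their log2 fold changes ran from −0.48 to 0.88 with a median of 0.02, beside 0.00 over all genes. The libraries of the groups did not overlap for 18 of the 66, where this held for 44.3% of all tested genes.

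Of the component rows, 178 of 242 were tested, and 23 rose and 21 fell (24.7%), with a median log2 fold change of 0.03. Over all 13632 tested genes, 33.3% passed (15.3% higher, 18.1% lower). The component rows had a median of 27.9 CPM against 43.8 over all tested genes, and its part in the lower share was not tested. Upstream components had 14 higher and 13 lower of 97 tested (27.8%), and downstream components 9 higher and 8 lower of 82 (20.7%). The component rows spanned a wider range than the A-B rows, from −1.37 for COMMD3 to 1.56 for TRIM34. With A, B and A-B summed, 19 of 109 tested loci rose and 16 fell (32.1%), where 33.7% of the 13497 rows of that fit passed the test (15.9% higher, 17.8% lower). The share of loci that passed was near that of all genes. With library-size scaling alone, 22 loci rose and 12 fell.

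The readthrough rows that rose with the firmest calls were FAM47E-STBD1, RAB4B-EGLN2 and EEF1E1-BLOC1S5, which passed the test under each of the 14 alternative analyses. FAM47E-STBD1, whose downstream gene encodes a glycogen-binding protein, had 7.17, 7.31 and 7.57 CPM in control against 10.4, 13.2 and 11.2 CPM in knockdown. It rose in every knockdown library above every control library (log2 fold change 0.65, SE 0.14, edgeR adjusted p = 0.000348). FAM47E and STBD1 themselves had 1.35 ± 0.277 and 1.03 ± 0.184 CPM in control against 1.94 ± 0.451 and 1.18 ± 0.115 CPM in knockdown, and neither passed the test (adjusted p = 0.191 and 0.762).

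RAB4B-EGLN2 had 11.2, 12.1 and 13.5 CPM in control against 15.3, 17.5 and 17.1 CPM in knockdown, with no overlap (log2 fold change 0.45, SE 0.11, edgeR adjusted p = 0.00211). EGLN2, a prolyl hydroxylase of the hypoxia response, moved the same way, from 105, 110 and 103 CPM to 126, 126 and 124 CPM (log2 fold change 0.24, SE 0.04, adjusted p = 0.000123). RAB4B, a small GTPase of endosome recycling, had 9.50 ± 1.62 CPM in control against 9.86 ± 0.367 CPM in knockdown and did not pass (adjusted p = 0.865). EGLN2 was the only downstream component called the same way as its readthrough row, and none was called the other way, while 4 were not called and 7 not tested.

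In 3 trios the readthrough row rose while its upstream component fell. EEF1E1-BLOC1S5 had 40.0, 40.9 and 35.6 CPM in control against 47.6, 46.4 and 47.6 CPM in knockdown (log2 fold change 0.27, SE 0.06, edgeR adjusted p = 0.00142). EEF1E1, a scaffold protein of the tRNA synthetase complex, had 51.2, 48.7 and 49.2 CPM in control against 44.5, 42.4 and 42.5 CPM in knockdown (log2 fold change −0.21, SE 0.06, adjusted p = 0.00858). The groups overlapped in neither row, and the order of the 2 rows differed between groups, with EEF1E1 holding more counts in every control library and the readthrough row in every knockdown library. BLOC1S5, a subunit of a complex that builds lysosome-related organelles, had 1 count in all. The fall of EEF1E1 did not pass with DESeq2 (adjusted p = 0.0723) or without control replicate 1 (0.0529), and its adjusted p ranged from 0.00467 to 0.0723 over the alternatives. The joined locus, which also takes in TXNDC5 and BLOC1S5-TXNDC5, had a log2 fold change of −0.02 (adjusted p = 0.692).

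ZHX1-C8orf76 had 24.0, 27.3 and 24.8 CPM in control against 30.3, 28.3 and 30.2 CPM in knockdown (log2 fold change 0.23, SE 0.08, edgeR adjusted p = 0.0287). ZHX1, a zinc finger and homeobox repressor of transcription, had 59.5, 59.9 and 56.5 CPM in control against 38.5, 39.7 and 37.3 CPM in knockdown, with no overlap (log2 fold change −0.61, SE 0.06, adjusted p = 2.08e-09). The ZHX1 difference passed under every alternative, and the summed locus fell by 0.27 on the log2 scale (SE 0.05, adjusted p = 7.80e-05). The rise of ZHX1-C8orf76 was less firm, with an adjusted p from 0.0165 to 0.154 over the alternatives. It did not pass with DESeq2 (0.13), without control replicate 1 (0.154) or 3 (0.0578), or without knockdown replicate 1 (0.0819) or 3 (0.0653). C8orf76 had 6.18 ± 1.30 CPM in control against 6.47 ± 1.74 CPM in knockdown.

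STON1-GTF2A1L had 1.64, 2.06 and 1.26 CPM in control against 3.77, 2.33 and 3.09 CPM in knockdown (log2 fold change 0.88, SE 0.26, edgeR adjusted p = 0.0108). STON1, an adaptor of endocytosis, had 35.5, 39.1 and 39.1 CPM in control against 31.3, 32.1 and 33.4 CPM in knockdown (log2 fold change −0.22, SE 0.07, adjusted p = 0.0165). The libraries overlapped in neither row. The rise did not pass with DESeq2 (0.0742) or without knockdown replicate 1 (0.0818), in a range from 0.00537 to 0.0818. The fall of STON1 did not pass with DESeq2 (0.0909), without control replicate 2 (0.0722) or 3 (0.0558), or without knockdown replicate 1 (0.0708), in a range from 0.00685 to 0.0909. GTF2A1L, a germ cell form of a TFIIA subunit, had 31 counts in all and was not tested.

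The readthrough rows that fell included the one with the second highest count. ANKHD1-EIF4EBP3 had 248, 252 and 265 CPM in control against 204, 220 and 220 CPM in knockdown, with no overlap (log2 fold change −0.25, SE 0.04, edgeR adjusted p = 6.87e-05), while ANKHD1 had 5.62 ± 0.257 and 6.28 ± 0.374 CPM and did not pass (adjusted p = 0.457). ZNF664-FAM101A fell from 31.0, 27.8 and 30.5 CPM to 19.2, 23.3 and 22.0 CPM (log2 fold change −0.48, SE 0.09, adjusted p = 8.31e-05). ZNF664, a zinc finger protein, fell with it, from 229, 238 and 249 CPM to 212, 215 and 218 CPM (log2 fold change −0.15, SE 0.04, adjusted p = 0.0094), and FAM101A had 1 count. It was the only upstream component called the same way as its readthrough row, beside the 3 called the other way, 6 not called and 2 not tested. Both falls of the A-B rows passed under every alternative.

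The other called rows were INS-IGF2, TNFAIP8L2-SCNM1, POC1B-GALNT4, BIVM-ERCC5 and UBE2F-SCLY, and each lost its call in at least 1 alternative. INS-IGF2 went from 3.95 ± 0.138 to 5.99 ± 0.765 CPM, with 274 counts in all beside none for INS, the insulin gene, and 4 for the growth factor IGF2. Its edgeR adjusted p of 0.00959 became 0.0655 without knockdown replicate 2 and 0.0693 with DESeq2, in a range from 0.00602 to 0.0693. TNFAIP8L2-SCNM1 rose by 0.22 on the log2 scale (adjusted p = 0.0213, range 0.0127 to 0.108), and did not pass without control replicate 2 (0.0856) or knockdown replicate 1 (0.0853), or with DESeq2 (0.108). POC1B-GALNT4 fell by 0.33 (adjusted p = 0.00348, range 0.000856 to 0.0858), with the highest value without control replicate 1. BIVM-ERCC5, whose downstream gene encodes a DNA repair nuclease, fell by 0.26 (adjusted p = 0.0108, range 0.00108 to 0.09), its groups overlapped, and it did not pass without control replicate 3 (0.0632) or knockdown replicate 2 (0.09), or with DESeq2 (0.0546). UBE2F-SCLY fell by 0.19 (adjusted p = 0.0209, range 0.0153 to 0.125), and did not pass without control replicate 1 (0.0566) or 3 (0.0508), knockdown replicate 3 (0.0762), or with DESeq2 (0.125).

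**Figure D4:**
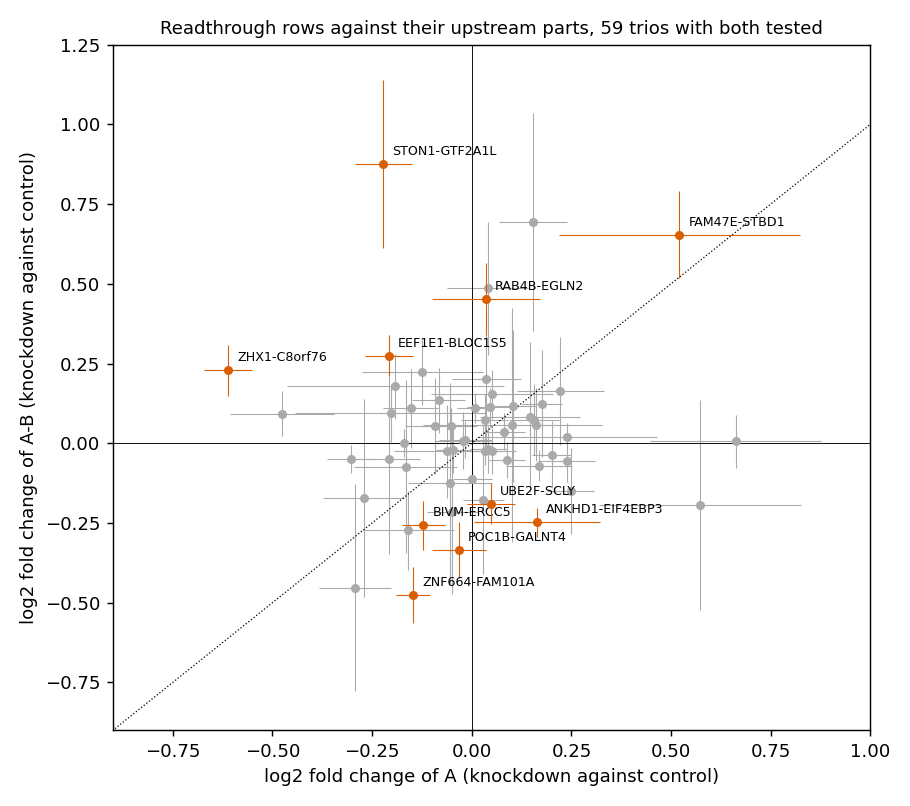
Log2 fold change of A-B (y axis) against that of its upstream component A (x axis), knockdown against control, for 59 trios with both tested, with bars of 1 standard error. Orange points with names are the called A-B rows, and the dotted line marks equal changes. STON1-GTF2A1L, ZHX1-C8orf76 and EEF1E1-BLOC1S5 lie at the upper left, where A-B is higher and A lower.

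The share of A-B within its trio needs no scaling between libraries. Summed over all trios, it was 23.1% ± 0.222 in control and 22.9% ± 0.170 in knockdown, a difference of −0.190 points (exact two-sided permutation test, p = 0.3). For single trios, the shares of the groups did not overlap in 16 of the 66 rows (24.2%), 7 higher and 9 lower in knockdown, and 3 libraries against 3 cannot give an exact p below 0.1. The median size of the difference was 1.19 points.

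The shares moved most in ZHX1-C8orf76, from 26.7%, 28.9% and 28.8% in control to 39.2%, 38.5% and 41.4% in knockdown. EEF1E1-BLOC1S5 went from 43.8%, 45.7% and 42.0% to 51.7%, 52.3% and 52.9%. In STON1-GTF2A1L the share was 4.36%, 4.93% and 3.07% in control and 10.6%, 6.60% and 8.40% in knockdown. These are the 3 trios whose upstream component fell as the readthrough row rose, and the shares are made from those same counts. In each, all knockdown libraries lay above all control libraries (exact two-sided permutation test, p = 0.1, the smallest possible). The largest fall was in PPAN-P2RY11, described next, from 61.6%, 63.0% and 62.5% to 54.7%, 52.7% and 56.5%.

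In some trios the components changed while the readthrough row did not pass the test, or had too few counts to be tested. Those named here beyond the naming rule (PPAN, TRIM6, ASB3, TMX2, CTNND1 and ZNF321P with their readthrough rows) were chosen after their values were seen. Of 73 trios with both components tested, both were called in 5, exactly 1 in 25 and neither in 43. Of all 13632 tested genes, 33.3% were called, and no such count was made for other pairs of genes. PPAN, a ribosome biogenesis factor, had 2.94, 2.06 and 2.66 CPM in control against 3.87, 4.54 and 3.91 CPM in knockdown (log2 fold change 0.66, SE 0.21, edgeR adjusted p = 0.0171). P2RY11, a receptor for extracellular ATP, rose from 12.9, 13.3 and 13.3 CPM to 16.8, 17.8 and 17.9 CPM (log2 fold change 0.41, SE 0.10, adjusted p = 0.00263). The libraries did not overlap in either, while PPAN-P2RY11 had 26.0 ± 0.577 and 26.0 ± 1.95 CPM and did not pass (adjusted p = 0.97). The PPAN call was lost with DESeq2 (0.101) and without control replicate 2 (0.0885) or knockdown replicate 2 (0.0738), in a range from 0.0136 to 0.101.

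TRIM34 had the largest rise of all members. This tripartite-motif protein, of a family with roles in antiviral defence, had 3.37, 3.77 and 5.18 CPM in control against 12.5, 10.2 and 12.3 CPM in knockdown (log2 fold change 1.56, SE 0.16, edgeR adjusted p = 6.35e-09). TRIM6, its neighbour, had 4.32, 5.48 and 5.18 CPM in control against 7.33, 5.35 and 7.51 CPM in knockdown, and its groups overlapped (log2 fold change 0.46, SE 0.17, adjusted p = 0.0402). The TRIM6 call was lost with DESeq2 (0.172), limma-voom (0.0518), and without control replicate 1 (0.207) or 3 (0.0556) or knockdown replicate 1 (0.136) or 3 (0.137), in a range from 0.0147 to 0.207. TRIM6-TRIM34 had at most 0.229 CPM in a library and was not tested. The summed locus went from 9.22 ± 1.44 to 18.5 ± 2.49 CPM (log2 fold change 1.04, adjusted p = 1.65e-07).

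In 3 trios the components moved in opposite directions. GPR75, a G protein-coupled receptor, fell from 10.9, 13.3 and 14.3 CPM to 9.01, 9.54 and 8.64 CPM (log2 fold change −0.48, SE 0.13, edgeR adjusted p = 0.00513), with no overlap. ASB3, a SOCS-box protein, rose from 22.7, 23.7 and 21.6 CPM to 28.5, 26.7 and 25.5 CPM (log2 fold change 0.24, SE 0.08, adjusted p = 0.0253), also with no overlap. GPR75-ASB3 had 35.1 ± 1.97 CPM in control against 37.5 ± 2.07 CPM in knockdown and did not pass (adjusted p = 0.333). The ASB3 call was lost with DESeq2 (0.112) and without control replicate 1 (0.0671) or 3 (0.0643) or knockdown replicate 1 (0.122) or 2 (0.0548), in a range from 0.0128 to 0.122.

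TMX2, a thioredoxin-related membrane protein, rose by 0.14 on the log2 scale (edgeR adjusted p = 0.0162) and CTNND1, a catenin of cell junctions, fell by 0.13 (0.0167), with TMX2-CTNND1 at 0. TMX2 did not pass with DESeq2 (0.0827) or without control replicate 1 (0.104) or 2 (0.0532), in a range from 0.00457 to 0.104. CTNND1 did not pass without control replicate 2 (0.0697) or knockdown replicate 1 (0.113), in a range from 0.00388 to 0.113. The zinc finger gene ZNF816 rose by 0.36 (adjusted p = 0.0409) and ZNF321P fell by 0.65 (0.0201), and their readthrough row was not tested. ZNF816 did not pass with DESeq2 (0.147) or without control replicate 2 (0.229) or knockdown replicate 2 (0.0937) or 3 (0.0947), in a range from 0.028 to 0.229. ZNF321P did not pass with DESeq2 (0.102) or without control replicate 1 (0.0623) or 3 (0.0638) or knockdown replicate 3 (0.164), in a range from 0.00871 to 0.164.

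Single components made up most of the larger changes. After COMMD3 the largest fall was in SLIT1, a secreted guidance cue for axons, from 17.4, 17.4 and 15.3 CPM to 7.96, 10.2 and 9.15 CPM (log2 fold change −0.88, SE 0.12, edgeR adjusted p = 8.51e-07). All its knockdown libraries lay below the controls, while its readthrough row ARHGAP19-SLIT1 held 10 counts in all. DISC1, a scaffold protein of neural development, fell from 31.4 ± 1.89 to 23.2 ± 0.818 CPM (log2 fold change −0.44, adjusted p = 7.01e-05). TMEFF1, a transmembrane protein with follistatin domains, fell from 107 ± 4.57 to 85.9 ± 3.37 CPM (log2 fold change −0.32, adjusted p = 4.57e-06).

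NME1 fell from 53.4, 51.3 and 52.8 CPM to 42.7, 42.0 and 43.0 CPM (log2 fold change −0.30, SE 0.06, edgeR adjusted p = 0.000184), whereas NME2 had 54.0 ± 1.39 and 55.6 ± 1.58 CPM and did not pass (adjusted p = 0.598). The NME1-NME2 share did not overlap between groups, at 59.6%, 58.8% and 60.0% in control and 60.0%, 61.5% and 60.2% in knockdown. NME1 and NME2 are related genes, and NME1-NME2 had no exon base of its own. Reads shared among these rows may have been divided by the authors' counting.

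Among component rows that rose, RPP21, a protein of RNase P, which trims tRNA precursors, went from 20.7 ± 1.14 to 27.9 ± 1.62 CPM (log2 fold change 0.44, edgeR adjusted p = 0.000208). PRR5, a subunit of the kinase complex mTORC2, went from 17.7 ± 1.59 to 23.3 ± 1.59 CPM (log2 fold change 0.41, adjusted p = 0.0013). RBM4 rose from 93.0, 91.3 and 86.9 CPM to 103, 101 and 104 CPM (log2 fold change 0.18, SE 0.05, adjusted p = 0.00378), with no overlap, beside RBM14 at 134 ± 6.04 and 134 ± 4.94 CPM (adjusted p = 0.911). SLIT1, DISC1, TMEFF1, NME1, RPP21, PRR5 and RBM4 passed under every alternative.

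Of a list of 29 cleavage, polyadenylation and termination genes, all were tested, and 2 rose and 5 fell (24.1%, beside 33.3% of all genes). These genes end transcripts at the poly(A) site, and the list had a median log2 fold change of 0.01. CSTF1, a subunit of the cleavage stimulation factor, rose by 0.17 on the log2 scale and SYMPK, a scaffold of the cleavage complex, by 0.15. Among those that fell, PPP1CB, a phosphatase catalytic subunit, fell by 0.46 and CDC73, of the polymerase-associated PAF1 complex, by 0.36. CPSF7, a subunit of cleavage factor I, and SSU72, a polymerase phosphatase, each fell by 0.17.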

How the data were processed

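The authors deposited 1 table of raw read counts per gene symbol for each library. Trim Galore 0.6.6, STAR 2.7.10a, bedtools and the build hg38 are named in the submitters' processing notes. Per the labels' protocols, libraries were made from total RNA with a directional kit. How reads were counted, with which strand setting and annotation, is not given in the sources used here, so overlapping genes may share reads.

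All symbols were fitted together with edgeR 4.0.16 (R 4.3.3): filterByExpr kept 13632 genes, TMM scaling gave factors of 0.980 to 1.02, and groups were compared by the quasi-likelihood test with Benjamini-Hochberg adjustment at 0.05. CPM use TMM-scaled library sizes. Joined loci sum rows that share a name, refitted with all other genes. Exons came from GENCODE v29 transcripts linked to RefSeq, names from RefSeq (GRCh38.p14). No replicate's counts were a copy of another's (chi-square per degree of freedom 1.23 to 1.99). This does not show whether the replicates came from separate cultures. Alternatives were other scalings and filters, DESeq2 1.42.0, limma-voom 3.58.1, a replicate block, an adjusted p under 0.01, and leaving out each library. Figures used Matplotlib 3.10.9.

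The members and lists were chosen with earlier results of these data known. The rule named the COMMD3 trio, the 10 A-B rows of highest CPM, called A-B rows and those with a component at 0 with their components, and the 8 largest rises and 8 largest falls among called component rows with 5 CPM or more and no overlap. It also named the 4 genes of the 3′ end processing list with the smallest adjusted p. Some other called genes of that list, the A-B rows at the ends of the share range or at 0, and other rows named outside the rule were chosen after their values were seen. Some genes of the marker and 3′ end processing lists are not reported here.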

Additional observations from a re-analysis of the deposited data

How the results depend on the processing

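No called row reversed its direction. All called genes went from 2084 higher and 2461 lower to 2505 and 2188 with library-size scaling. Of 12 called readthrough rows, 5 passed under all 14 alternatives, and of 44 called component rows 21 did. With DESeq2, 2865 genes were called (1170 higher), with 6 readthrough rows (3 higher, 3 lower), 24 component rows (12 higher, 12 lower) and 19 joined loci (9 higher, 10 lower). At an adjusted p under 0.01 there were 2943 (1224 higher), 7 (4 higher, 3 lower), 24 (12 and 12) and 19 (9 and 10). Leaving out each library in turn gave 9 to 13 readthrough rows, with 4 to 7 higher (4 without knockdown replicate 1) and 3 to 6 lower (3 without control replicate 3). It gave 34 to 45 component rows and 24 to 33 joined loci, with 12 to 19 higher (12 without knockdown replicate 2). The cause of these differences was not tested. Counts under the other scalings, filters and limma-voom were within 1.5 times the main ones.

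The difference in the summed share was −0.445 points over A-B and A alone, −0.0400 points over A-B and B alone, and −0.308 to −0.0877 points when each library was left out. Same-numbered libraries shared little (correlations of deviations 0.0792, 0.00548 and 0.0713), and not every library correlated best with its own number. Pairs with different numbers had correlations from −0.104 to 0.0387. The labels do not say what a shared number stands for, so the replicate block pairs libraries by number alone. With it 5248 genes, 15 readthrough rows, 53 component rows and 37 joined loci were called. Rows with few counts, such as STON1-GTF2A1L and INS-IGF2, are limited by depth, and a difference that failed the test is not shown to be absent.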
